A study of Saccharomyces cerevisiae with 12 samples.

Results

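Transcript levels in acetate limited cultures of Saccharomyces cerevisiae were compared with those in glucose limited cultures, 3 arrays against 3. Both groups were the prototrophic MATa strain CEN.PK113-7D, a haploid grown in aerobic chemostats at pH 5.0 and 30 °C. The dilution rate was 0.10 per hour, so growth rate was the same on both carbon sources. The labels give 256 mmol carbon per litre for the acetate, ethanol and maltose media and no value for the glucose medium. The comparison used 6 of the 12 arrays of the series, chosen by their titles, and all probe sets above a signal of 12 on at least 3 of the 6 were tested: 6857 of 9275, of which 5596 carried 1 gene name. The other 6 arrays, from 3 ethanol limited and 3 maltose limited cultures grown at the same rate, shared the estimate of the spread and are used below where they separate acetate from other sources. Each array came from 1 culture. Signals are linear intensities scaled by the authors to a common trimmed mean. Within a gene they can be compared between arrays, and between genes they cannot.

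Acetate enters the yeast cell as a C2 acid and is activated to acetyl-CoA. It is oxidised in the TCA cycle, and the glyoxylate cycle and gluconeogenesis turn part of it into C4 acids and sugar phosphates. In yeast, acetyl units can cross membranes bound to carnitine, and NADPH for biosynthesis can come from the pentose phosphate pathway, from NADP-linked isocitrate dehydrogenase or from acetaldehyde dehydrogenase. Genes for these routes, for storage carbohydrates and for the general stress response are known to respond to the carbon source.

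The arrays did not all stand alike. For actin, the signal near the 3' end over that near the 5' end, a ratio that is larger where RNA is degraded or copied incompletely, was 2.78, 10.24 and 13.09 on acetate arrays 1 to 3, against 1.84, 2.60 and 1.97 on glucose arrays 1 to 3. Acetate array 1 had Pearson's r of 0.954 to 0.955 with the glucose arrays across probe sets and of 0.952 to 0.967 with the other acetate arrays. The highest signal was 10099 to 13382 on the acetate arrays and 9356 on glucose array 2, but 3733 and 3765 on glucose arrays 1 and 3. The glucose arrays also came from records with their own protocol text, which describes RNA preparation in other words and gives a higher dissolved oxygen. Any such differences cannot be told apart from the carbon source. For YER148W, another control, the ratio was 4.9, 7.3 and 9.9 on acetate arrays 1 to 3, against 2.3, 3.0 and 2.8 on glucose arrays 1 to 3. Results are therefore given with all 6 arrays and, where they lead, also in 3 other fits. The first kept array 1 as the only acetate array and array 1 as the only ethanol array. Ethanol arrays 2 and 3 also had high ratios. The second entered a 3'/5' covariate, the mean of the log2 ratios of actin and YER148W. The third left out glucose arrays 1 and 3. That first fit changes the estimate of the spread as well as the acetate group, and is called the fit with acetate array 1 alone below. A single array a group is assumed to vary like the other groups, and such a fit can call few probe sets. The covariate moved the median log2 change of probe sets with 1 gene to 0.15, against -0.05 without it, and values under it should be read against 0.15.

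Between acetate and glucose, 254 probe sets were higher and 149 lower at an adjusted p under 0.05, 3.7% and 2.17% of the 6857 tested. Of these, 22 higher calls had all glucose signals at the floor and 4 lower calls had all acetate signals there. They passed the filter only through the group where they are high, so their calls carry no weight of their own. Most transcripts moved little: 91.4% of probe sets lay within 2-fold and the median log2 change was 0.02. Of the 254, 191 were at least 2-fold higher and 31 at least 4-fold. Of the 149, 114 were at least 2-fold lower and 25 at least 4-fold. The acetate and glucose signals did not overlap for 252 of the 254 and 146 of the 149. Over all 6857 tested, acetate lay above glucose without overlap for 1337 probe sets and below it for 966. For a called gene, a lack of overlap therefore adds little to the call. Taken as 1 probe set per gene, 113 genes were higher (2.16% of 5229) and 126 lower (2.41%), with a median log2 change over genes of -0.04. All counts of list members called below should be read against these shares of genes. With acetate array 1 alone 29 probe sets were called, with the 3'/5' covariate 71, and without glucose arrays 1 and 3 101. In these 3 fits 26, 70 and 75 of the 403 were still called, and all 403 kept their sign. Of 122 called probe sets of named genes, where FDH1 and SUC2 count 2 each, 52 were still called with the covariate. A fit that kept only the arrays coded P, which leaves out glucose array 2 of these 6, called 422. Leaving out 1 array gave 650, 144 and 129 calls when it was acetate array 1, 2 and 3 in turn. It gave 255, 234 and 181 calls when it was glucose array 1, 2 and 3 in turn.

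**Figure D1:**
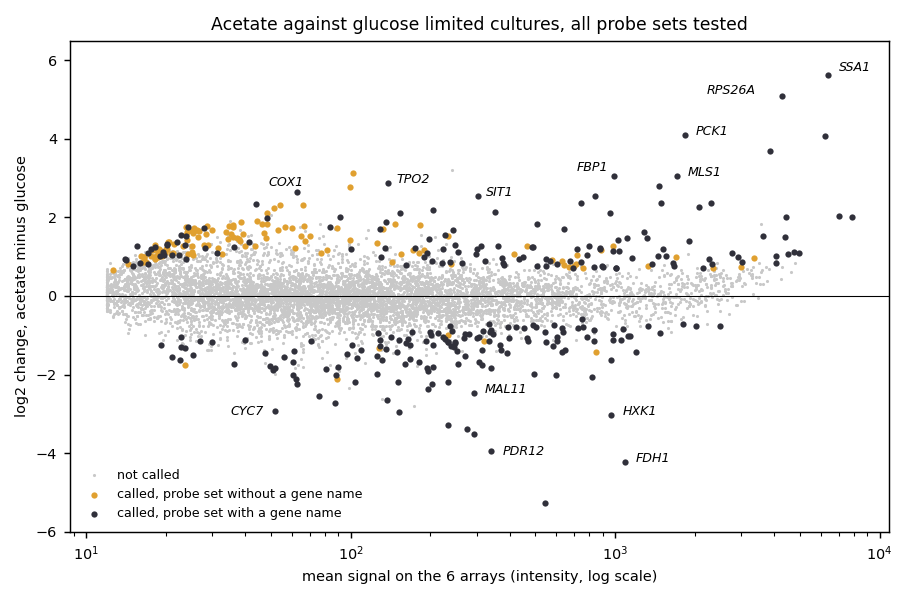
The log2 change, acetate minus glucose, is plotted for 6857 probe sets against their mean signal on the 6 arrays (log axis). Black points are called probe sets with a gene name and orange points called ones without: most orange points lie above 0 at low signal, the points named SSA1 and RPS26A lie at the bright end, and PCK1 (4.10) and FDH1 (-4.24 for its brighter probe set) stand far from 0.

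The 5 genes taken as markers of the comparison separated the carbon sources on every array. PCK1, phosphoenolpyruvate carboxykinase, read 2870, 3985 and 3569 in acetate cultures, against 212, 225 and 171 in glucose cultures (log2 change 4.10 ± 0.23 (SE), adjusted p = 1.04e-08), a 17.1-fold difference. MLS1, malate synthase, read 3129, 3003 and 2990 in acetate cultures, against 358, 531 and 255 in glucose cultures (log2 change 3.06 ± 0.25 (SE), adjusted p = 1.42e-06). CRC1, the carnitine carrier of the inner mitochondrial membrane, read 1677, 1298 and 1329 in acetate cultures, against 280.0, 214 and 243 in glucose cultures (log2 change 2.54 ± 0.22 (SE), adjusted p = 1.82e-06). All acetate arrays lay above all glucose arrays for these 3 genes. HXK1, a hexokinase isoenzyme of slow or sugar-poor growth, ran the other way with 271, 182 and 184 in acetate cultures, against 1941, 1383 and 1845 in glucose cultures (log2 change -3.03 ± 0.25 (SE), adjusted p = 1.42e-06). CYC7, the cytochrome c isoform of low oxygen and stress, read 11.9, 10.6 and 6.6 in acetate cultures, against 73.8, 82.7 and 124 in glucose cultures. Its acetate signals were all at or under the floor of 12, so it was at least 7.59-fold lower. It passed the filter only through the glucose arrays, and this is a description with no test. CYC1, the main cytochrome c, did not pass (log2 -0.03 ± 0.17 SE).

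**Figure D2:**
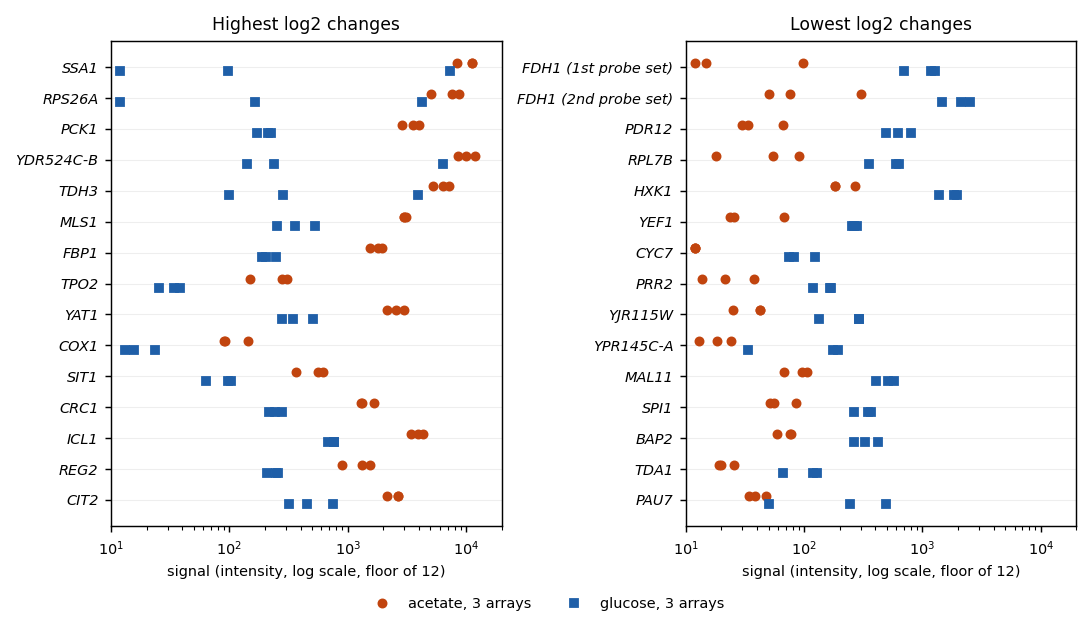
Signals on each array (log axis, values under 12 drawn at 12) for the 15 highest and 15 lowest named changes, with acetate as orange circles and glucose as blue squares. The groups do not overlap in any row, but SSA1, RPS26A, YDR524C-B and TDH3 have 1 glucose array (array 2) close to acetate and 2 far below it; FDH1 and PDR12 are low on all 3 acetate arrays.

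All 6 listed genes of gluconeogenesis and the glyoxylate cycle were higher in acetate, with a median log2 change of 2.71. FBP1, fructose-1,6-bisphosphatase, read 1790, 1960 and 1548 in acetate cultures, against 190.1, 248 and 205 in glucose cultures (log2 change 3.04 ± 0.23 (SE), adjusted p = 8.55e-07). ICL1, isocitrate lyase, read 3401, 3898 and 4296 in acetate cultures, against 687, 769.6 and 766 in glucose cultures (log2 change 2.38 ± 0.20 (SE), adjusted p = 1.42e-06). MDH2 and IDP2, the cytosolic malate and NADP-linked isocitrate dehydrogenases, completed the list. In each of the 3 reduced or adjusted fits 5 of the 6 were called. Of the transcription factors known to switch these genes on, SIP4 rose to 313, 234 and 204 in acetate cultures, against 44.5, 61.2 and 69 in glucose cultures (log2 change 2.10 ± 0.31 (SE), adjusted p = 6.30e-04). CAT8 did not pass (44.2, 54.7 and 46.4 in acetate cultures, against 69.8, 46.2 and 56.4 in glucose cultures; adjusted p = 0.812), nor did ADR1 (114, 105 and 87.1 in acetate cultures, against 51.3, 56.1 and 49.6 in glucose cultures; adjusted p = 0.17), although its signals did not overlap. REG2, a regulatory subunit of the Glc7 phosphatase that acts in glucose repression, was called higher at 898, 1315 and 1554 in acetate cultures, against 208, 246 and 258 in glucose cultures (log2 change 2.37 ± 0.33 (SE), adjusted p = 3.58e-04). USV1, a zinc finger regulator, was called lower (log2 -1.37 ± 0.31, adjusted p = 0.0142). These 3 were the only calls among 31 carbon source regulators tested.

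Of 19 genes for the use of acetate, ethanol and acetyl-CoA, 4 rose, 2 fell and 13 did not pass, against 2.16% and 2.41% of all genes. ADY2, an acetate permease of the plasma membrane, read 1790, 2327 and 2150 in acetate cultures, against 862, 1093 and 1141 in glucose cultures (log2 change 1.02 ± 0.18 (SE), adjusted p = 0.00298). ACS1, the acetyl-CoA synthetase of respiratory growth, read 3681, 4023 and 3892 in acetate cultures, against 1750, 2363 and 1739 in glucose cultures (log2 change 1.00 ± 0.20 (SE), adjusted p = 0.00611). ACH1, a mitochondrial CoA transferase between succinyl-CoA and acetate, read 1999, 1781 and 2042 in acetate cultures, against 760.2, 518 and 616 in glucose cultures (log2 change 1.64 ± 0.23 (SE), adjusted p = 4.16e-04). For each of the 3 genes the acetate arrays lay above every glucose array. ACS2, the second synthetase, did not pass, with 1128, 1073 and 852 in acetate cultures, against 846, 707 and 829.5 in glucose cultures (adjusted p = 0.345). The genes that fell were ALD5 and ADH1, an acetaldehyde and an alcohol dehydrogenase. ADH2, the ethanol-oxidising alcohol dehydrogenase, was called at 5935, 7052 and 7057 in acetate cultures, against 2544, 4698 and 2525 in glucose cultures (adjusted p = 0.0284), but the step lay mostly on glucose arrays 1 and 3, and without that pair its log2 change was 0.50 (adjusted p = 0.68). ACS1 had 0.71 (adjusted p = 0.296) without the pair. No member of the list was called with acetate array 1 alone, and 1 was called higher with the covariate and 1 without glucose arrays 1 and 3. The list's median was 0.173 with all arrays and 0.152, 0.001 and 0.059 in those fits, and -0.135 after quantile normalization.

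All 3 carnitine acetyltransferase genes rose. Of 18 genes for the carnitine shuttle and mitochondrial carriers, 6 were higher and 2 lower, with a median log2 change of 0.48. YAT1, the carnitine acetyltransferase of the outer mitochondrial membrane, read 2145, 2574 and 2971 in acetate cultures, against 505, 277 and 347 in glucose cultures (log2 change 2.80 ± 0.31 (SE), adjusted p = 3.26e-05). Its partner YAT2 of the cytosol read 1833, 1898 and 2061 in acetate cultures, against 800.0, 516 and 826 in glucose cultures (log2 change 1.47 ± 0.21 (SE), adjusted p = 4.16e-04). CAT2, the enzyme shared by mitochondria and peroxisomes, read 1151, 1563 and 1770 in acetate cultures, against 578, 453 and 632 in glucose cultures (log2 change 1.42 ± 0.24 (SE), adjusted p = 0.0016). No acetate signal of these 3 genes was as low as their highest glucose signal. AGP2, a regulator of carnitine uptake, was also called higher. SFC1 and DIC1 were chosen after their values were seen. SFC1, the succinate-fumarate carrier that links the glyoxylate cycle to mitochondria, read 1201, 1103 and 866 in acetate cultures, against 541, 484 and 496 in glucose cultures (log2 change 1.05 ± 0.19 (SE), adjusted p = 0.00362). DIC1, the dicarboxylate carrier, fell (log2 -1.01 ± 0.21, adjusted p = 0.00861). JEN1, the proton symporter for lactate, pyruvate and acetate, fell as well, with 1083, 1063 and 891 in acetate cultures, against 1790, 1968 and 2073 in glucose cultures (log2 change -0.94 ± 0.18 (SE), adjusted p = 0.00493). With acetate array 1 alone 2 members of the list were called higher and none lower, with the covariate 4 and none, and without glucose arrays 1 and 3 4 and 1.

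In the TCA cycle, 8 of 21 genes rose, none fell and 19 had a positive change, with a median log2 of 0.67. CIT2, the peroxisomal citrate synthase, rose to 2137, 2636 and 2670 in acetate cultures, against 758, 455 and 319 in glucose cultures (log2 change 2.37 ± 0.33 (SE), adjusted p = 3.45e-04). IDH1 and IDH2 encode the NAD-linked isocitrate dehydrogenase. IDH1 read 1279, 1126 and 1275 in acetate cultures, against 577, 536 and 469 in glucose cultures (log2 change 1.22 ± 0.17 (SE), adjusted p = 3.51e-04). IDH2 read 2468, 2897 and 2889 in acetate cultures, against 1068, 1159 and 915 in glucose cultures (log2 change 1.40 ± 0.19 (SE), adjusted p = 2.83e-04). SDH1, the flavoprotein of succinate dehydrogenase, read 1190, 1510 and 1343 in acetate cultures, against 631, 699.5 and 495 in glucose cultures (log2 change 1.16 ± 0.19 (SE), adjusted p = 0.0016). For all 4 genes every acetate array lay above every glucose array. The mitochondrial aconitase gene ACO1, the fumarase gene FUM1 and the succinate dehydrogenase gene SDH4 were the other nuclear members called, with CIT3. The list's median was 0.70 with acetate array 1 alone, where no member was called. It was 0.57 with the covariate (5 called) and 0.83 without glucose arrays 1 and 3 (3 called).

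CIT3 belongs to a second route too. With PDH1, a methylcitrate dehydratase, and ICL2, a methylisocitrate lyase, it forms the methylcitrate cycle, which breaks down propionyl-CoA in mitochondria. These 3 genes were put together after their values were seen. CIT3 read 793, 745 and 619.6 in acetate cultures, against 433, 304 and 392 in glucose cultures (log2 change 0.94 ± 0.21 (SE), adjusted p = 0.0134). PDH1 read 1420, 1651 and 1215 in acetate cultures, against 667, 542 and 722 in glucose cultures (log2 change 1.15 ± 0.24 (SE), adjusted p = 0.00809). ICL2 read 1157, 1255 and 1249 in acetate cultures, against 568, 472 and 569 in glucose cultures (log2 change 1.19 ± 0.20 (SE), adjusted p = 0.00193). All 3 were higher on every acetate array than on any glucose array.

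The nuclear genes of the respiratory chain and ATP synthase moved little. Of 38 tested, 28 had a positive change, but 1 was called, NDE2, an external NADH dehydrogenase of the inner mitochondrial membrane, at 942, 923 and 1067 in acetate cultures, against 213, 316 and 392 in glucose cultures (log2 change 1.71 ± 0.22 (SE), adjusted p = 1.54e-04). The list's median log2 was 0.25, against -0.04 over all genes. After the values were seen, the mitochondrially encoded genes among the tested probe sets were looked up: COX1, a core subunit of cytochrome c oxidase, and OLI1, the membrane ring subunit of ATP synthase. COX1 read 143, 89.6 and 91.7 in acetate cultures, against 15.6, 23.4 and 13 in glucose cultures (log2 change 2.65 ± 0.40 (SE), adjusted p = 6.95e-04). OLI1 read 1700, 2045 and 2628 in acetate cultures, against 919, 951 and 846 in glucose cultures (log2 change 1.21 ± 0.24 (SE), adjusted p = 0.00678). Both were higher on all 3 acetate arrays than on any glucose array. The acetate signals of OLI1 follow the order of the 3'/5' ratio on those arrays, as do those of ICL1, YAT1, YAT2, CAT2 and CIT2. Its log2 change was 0.59 (adjusted p = 0.537) with the 3'/5' covariate and 0.91 with acetate array 1 alone. The change of COX1 was 2.28 (adjusted p = 0.0712) and 3.09 (adjusted p = 0.0454) in those fits, and 2.17 (adjusted p = 0.102) without glucose arrays 1 and 3. COX1 read 32.6, 49.6 and 100.0 in ethanol cultures and 21.5, 21.9 and 28.5 in maltose cultures. The ethanol signals overlapped those of acetate, and the maltose signals those of glucose. RNA preparation is described in other words for the glucose arrays than for the acetate arrays, and its part in these signals cannot be told apart from the carbon source. AAC1, an ADP/ATP carrier isoform, was called higher at log2 0.87 ± 0.23 (adjusted p = 0.0295), within a list of 18 oxygen-regulated genes of which 2 were higher. The only lower one was CYC7, which as said above is a description with no test. The other riser of that list, HYP2, the translation factor eIF5A, read 4888, 6091 and 7104 in acetate cultures, against 2246, 4323 and 2387 in glucose cultures, and its glucose array 2 was close to acetate.

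Several glycolytic and sugar uptake genes fell. Of 20 glycolytic genes, 6 fell and 1, TDH3, was called higher, on the bright signals described below. The median log2 was -0.54, and 5 of 20 changes were positive. Besides HXK1 the strongest fall was that of TDH1, a glyceraldehyde-3-phosphate dehydrogenase of slow growth, with 556, 439 and 416 in acetate cultures, against 1123, 1622 and 1614 in glucose cultures (log2 change -1.62 ± 0.23 (SE), adjusted p = 4.85e-04). PFK26, which makes the glycolytic activator fructose-2,6-bisphosphate, read 145, 103 and 118 in acetate cultures, against 287, 288 and 290.4 in glucose cultures (log2 change -1.25 ± 0.24 (SE), adjusted p = 0.00429). GLK1, ENO1 and PFK2 fell too. TDA1, a protein kinase that acts on the hexokinase Hxk2, stood among the 15 lowest changes with 25.3, 19.2 and 19.9 in acetate cultures, against 119, 65.8 and 128 in glucose cultures (log2 change -2.23 ± 0.35 (SE), adjusted p = 9.03e-04). Acetate lay below glucose on every array for these genes. HXK2, the hexokinase of rapid growth, read 613, 523 and 403 in acetate cultures, against 976, 938 and 821 in glucose cultures, without overlap, and missed the threshold (adjusted p = 0.0607). With acetate array 1 alone no glycolytic gene was called and the median was -0.43; without glucose arrays 1 and 3, 3 were called lower and the median was -0.52.

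Among 16 hexose transporter and sensing genes 5 fell and 1, HXT5, rose. MTH1, a negative regulator of HXT transcription in the absence of glucose, read 44.1, 22.6 and 39.1 in acetate cultures, against 174, 102 and 147 in glucose cultures (log2 change -2.02 ± 0.34 (SE), adjusted p = 0.0016). HXT2, a high-affinity carrier, read 559, 585 and 818 in acetate cultures, against 1417, 1788 and 2030 in glucose cultures (log2 change -1.42 ± 0.22 (SE), adjusted p = 0.00112). HXT4 and HXT10 were dim, at 21.1, 23.9 and 32.1 in acetate cultures, against 83.7, 69.1 and 56.2 in glucose cultures for HXT4, and at 6.9, 6.7 and 12.5 in acetate cultures, against 33.4, 21 and 34.6 in glucose cultures for HXT10. Both were called lower (adjusted p = 0.0132 and 0.00362). HXT7, the main high-affinity carrier, shares its sequence almost entirely with HXT6, and its probe set fell by 0.72 on the log2 scale (adjusted p = 0.0412), with signals still at 1296, 1394 and 1422 in acetate cultures, against 2024, 2347 and 2394 in glucose cultures. No member of this list was called with acetate array 1 alone, and 1 was called lower with the covariate or without glucose arrays 1 and 3.

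**Figure D3:**
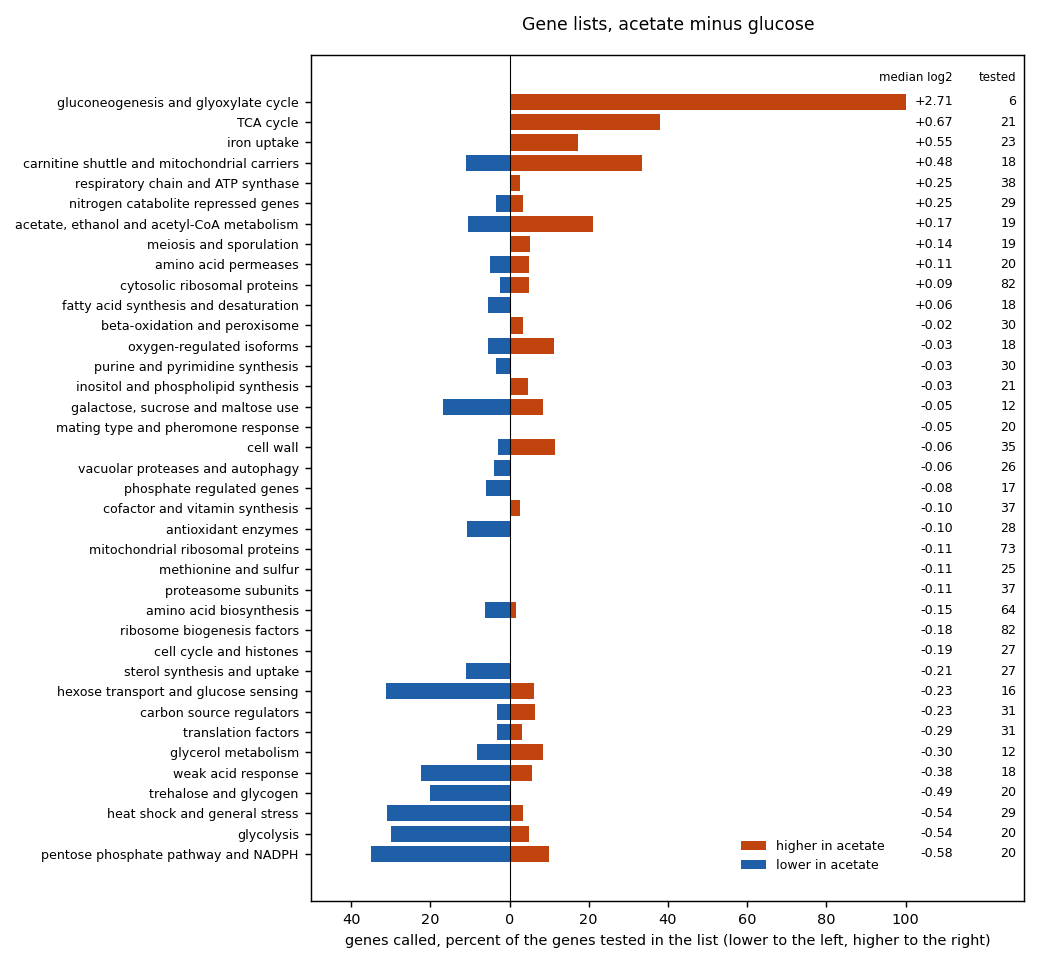
For 38 gene lists, bars give the percent of tested genes called higher (to the right) or lower (to the left) in acetate cultures, ordered by the list's median log2 change, which is printed beside the number tested. Gluconeogenesis, the TCA cycle and iron uptake stand at the top, and the pentose phosphate, glycolysis and stress lists at the bottom.

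Genes of both oxidative steps that make NADPH from glucose 6-phosphate fell. Of 20 genes for the pentose phosphate pathway and NADPH, 7 fell and 2 rose, with a median log2 of -0.585. ZWF1, glucose-6-phosphate dehydrogenase, read 187, 124 and 112 in acetate cultures, against 411, 400.5 and 386 in glucose cultures (log2 change -1.53 ± 0.28 (SE), adjusted p = 0.00362). GND2, the minor 6-phosphogluconate dehydrogenase, read 135, 67 and 79.3 in acetate cultures, against 236, 356 and 356 in glucose cultures (log2 change -1.80 ± 0.29 (SE), adjusted p = 0.0013), and the main isoform GND1 was also called lower. YEF1, an NADH kinase, read 67.1, 23.4 and 25.7 in acetate cultures, against 256, 262 and 281 in glucose cultures (log2 change -2.96 ± 0.39 (SE), adjusted p = 2.44e-04). On every acetate array these 3 transcripts lay below all glucose arrays, and acetate array 1 had the highest of the acetate signals each time. SOL3, SOL4 and TAL1 of the same pathway fell too. The risers were IDP2, named above, and RKI1, ribose-5-phosphate ketol-isomerase of the branch without NADPH, at 311, 260.2 and 298 in acetate cultures, against 103, 121 and 93.3 in glucose cultures (log2 change 1.46 ± 0.26 (SE), adjusted p = 0.00233). The median of the list was -0.24 with acetate array 1 alone, -0.48 with the covariate and -0.585 without glucose arrays 1 and 3. With the covariate 1 member, YEF1, was called lower and 1, RKI1, higher. The log2 change of ZWF1 was -0.99 (adjusted p = 0.337) in that fit.

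Part of the storage carbohydrate genes was lower. Of 20 trehalose and glycogen genes, 4 fell, none rose and 2 of 20 had a positive change. GPH1, glycogen phosphorylase, read 98.7, 80.4 and 78 in acetate cultures, against 355, 279.5 and 276 in glucose cultures (log2 change -1.82 ± 0.34 (SE), adjusted p = 0.00407). GSY2, the main glycogen synthase, read 139, 78.6 and 88.8 in acetate cultures, against 214, 224 and 267 in glucose cultures (log2 change -1.24 ± 0.24 (SE), adjusted p = 0.00578). GAC1, a glycogen-targeting phosphatase subunit, and TPS2, trehalose-6-phosphate phosphatase, fell by 1.87 and 0.80 on the log2 scale (adjusted p = 0.0149 and 0.0234). The other glycogen genes GSY1, GLC3, GLG1, GLG2 and GDB1 did not pass. The median of the list was -0.49 with all arrays, -0.48 with acetate array 1 alone and -0.47 without glucose arrays 1 and 3. With the covariate it was -0.515, and 1 member was called lower.

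Of 29 heat shock and general stress genes, 9 fell, 1 was called higher and 6 had a positive change, with a median log2 of -0.54. SPI1, a cell wall protein of stationary phase, read 85.8, 51.8 and 55.3 in acetate cultures, against 264, 349 and 368 in glucose cultures (log2 change -2.37 ± 0.24 (SE), adjusted p = 1.01e-05). SIP18, a small hydrophilic protein of osmotic and drying stress, read 331, 169.8 and 226 in acetate cultures, against 743, 956 and 1165 in glucose cultures (log2 change -2.01 ± 0.26 (SE), adjusted p = 1.54e-04). GRE1, another such protein, was called at 482, 141 and 216 in acetate cultures, against 307, 1779 and 1996 in glucose cultures (adjusted p = 0.0314), but its groups overlapped: acetate array 1 lay above glucose array 1. The chaperone genes HSP104, HSP78, HSP42, SSA4 and SSE2 fell, with RTN2. The riser was SSA1, whose glucose signals were 0.0 and 98.1 on arrays 1 and 3 and 7378 on array 2. With acetate array 1 alone 1 of the list was called lower, with the covariate 2, and without glucose arrays 1 and 3 4. TFS1, an inhibitor of carboxypeptidase Y, MSC1, and DCS2, a relative of the scavenger decapping enzyme, were picked after their values were seen. They also fell, by 1.43, 1.38 and 1.36 on the log2 scale (adjusted p = 0.00112, 0.00611 and 4.85e-04). Of 28 antioxidant genes 3 fell, among them AHP1, a peroxiredoxin (log2 -1.14 ± 0.25, adjusted p = 0.0132), and none rose.

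Of 18 genes known from the response to weak acids, 4 fell and 1 rose. GRE1 is on this list too, and YGP1, a secreted glycoprotein, fell with the 2 genes described next. PDR12, the plasma membrane exporter of carboxylate anions such as sorbate and propionate, read 65.8, 29.9 and 33.3 in acetate cultures, against 802, 620.4 and 492 in glucose cultures (log2 change -3.96 ± 0.35 (SE), adjusted p = 2.49e-06), a 15.5-fold difference. FDH1, formate dehydrogenase, was measured by 2 probe sets. The brighter read 303, 75.2 and 50.9 in acetate cultures, against 2129, 1457 and 2502 in glucose cultures (log2 change -4.24 ± 0.44 (SE), adjusted p = 1.39e-05). The dimmer read 98.5, 9.6 and 14.7 in acetate cultures, against 1170, 691 and 1264 in glucose cultures (log2 change -5.28 ± 0.55 (SE), adjusted p = 1.52e-05). Both may also detect the near-identical FDH2. FDH1 was the lowest named change of the comparison, and acetate array 1 read higher than the other 2 acetate arrays on both probe sets. The median of the list was -0.38 with all arrays, -0.10 with acetate array 1 alone, where 1 was called lower, and -0.05 with the 3'/5' covariate, where 3 were. TPO2, a polyamine exporter, rose to 149.7, 278 and 305 in acetate cultures, against 25.2, 37.9 and 33.7 in glucose cultures (log2 change 2.88 ± 0.38 (SE), adjusted p = 2.44e-04).

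Of 23 iron uptake genes, 4 rose, none fell and 19 had a positive change, with a median log2 of 0.55. SIT1, a transporter of iron-loaded siderophores, read 615, 369 and 566 in acetate cultures, against 102, 97 and 63.6 in glucose cultures (log2 change 2.56 ± 0.33 (SE), adjusted p = 1.98e-04). ENB1, the transporter for enterobactin, read 725, 406 and 412 in acetate cultures, against 241, 226 and 158 in glucose cultures (log2 change 1.27 ± 0.27 (SE), adjusted p = 0.0105). FTR1, the permease of the reductive pathway, read 569.5, 418 and 464 in acetate cultures, against 282, 254 and 276 in glucose cultures (log2 change 0.83 ± 0.22 (SE), adjusted p = 0.0317). No acetate signal of these 3 genes was as low as any of their glucose signals. The same held for HMX1, a heme oxygenase that frees iron from heme, with 723, 952 and 955 in acetate cultures, against 525, 373 and 537 in glucose cultures (log2 change 0.88 ± 0.20 (SE), adjusted p = 0.017). The median was 0.62 with acetate array 1 alone, where none was called, and 0.47 without glucose arrays 1 and 3, where 2 were. COT1, a vacuolar carrier of zinc and cobalt, and ZPS1, a gene of zinc deficiency, were picked after their values were seen. COT1 read 640.0, 718 and 687 in acetate cultures, against 286, 232 and 347 in glucose cultures (log2 change 1.26 ± 0.21 (SE), adjusted p = 0.00189). ZPS1 read 281, 396 and 363 in acetate cultures, against 133, 209.9 and 143 in glucose cultures (log2 change 1.11 ± 0.25 (SE), adjusted p = 0.0136). Both were higher on every acetate array.

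Calls among nitrogen genes were few, against 2.16% of all genes called higher and 2.41% lower. Of 64 amino acid biosynthesis genes 4 fell (LYS4, ARG7, ARO4 and TRP4) and 1, AAT2, rose, and of 25 methionine and sulfur genes limma called 0, with 2 at an unadjusted p under 0.05. BAP2, a permease for branched-chain amino acids, read 76.6, 58.4 and 77.8 in acetate cultures, against 419, 265 and 326 in glucose cultures (log2 change -2.23 ± 0.26 (SE), adjusted p = 3.93e-05). TAT1, a neighbouring permease gene with a similar substrate range, read 30.0, 19.3 and 28.9 in acetate cultures, against 10.0, 6.4 and 8 in glucose cultures. Its glucose signals were all under 12, so it was at least 2.13-fold higher. It passed the filter only through the acetate arrays, and this is a description with no test. GDH3, a NADP-linked glutamate dehydrogenase of growth on C2 compounds, read 1228, 1155 and 994 in acetate cultures, against 508, 522 and 369 in glucose cultures (log2 change 1.28 ± 0.22 (SE), adjusted p = 0.00172). CAR2, ornithine transaminase, read 225, 172 and 219 in acetate cultures, against 446, 675 and 481 in glucose cultures (log2 change -1.36 ± 0.28 (SE), adjusted p = 0.00723). GDH3 was the 1 riser and CAR2 the 1 faller among 29 tested genes of the list headed nitrogen catabolite repressed genes. That list also holds other nitrogen genes, GDH3 among them.

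Glycine genes were grouped after their values were seen. AGX1, which makes glycine from glyoxylate and alanine, read 3097, 4094 and 4544 in acetate cultures, against 2200, 2186 and 1947 in glucose cultures (log2 change 0.87 ± 0.21 (SE), adjusted p = 0.0204). The acetate signals of AGX1 follow the order of the 3'/5' ratio, as do those of several genes named above. The log2 change of AGX1 was 0.39 (adjusted p = 0.728) with the covariate and 0.56 with acetate array 1 alone. GCV1 and GCV2, subunits of the mitochondrial glycine decarboxylase, both passed. GCV1 read 767, 652 and 506 in acetate cultures, against 366, 416 and 344 in glucose cultures (log2 change 0.76 ± 0.19 (SE), adjusted p = 0.0246). GCV2 read 498, 702 and 514 in acetate cultures, against 279.5, 315 and 283 in glucose cultures (log2 change 0.95 ± 0.19 (SE), adjusted p = 0.00735). GCV3, the third subunit gene, did not pass (3954, 4024 and 3573 in acetate cultures, against 1693, 4456 and 1902 in glucose cultures; adjusted p = 0.189), and SHM1, the mitochondrial serine hydroxymethyltransferase, had a negative change that did not pass (-0.21 ± 0.26). On GCV3, glucose array 2 lay with the acetate arrays and glucose arrays 1 and 3 lay below. BDH1 and BDH2, neighbouring genes of butanediol dehydrogenase and a relative, were also picked afterwards. BDH1 read 207, 192 and 191 in acetate cultures, against 807, 931 and 641 in glucose cultures (log2 change -2.00 ± 0.18 (SE), adjusted p = 3.51e-06). BDH2 read 51.4, 23.4 and 27.9 in acetate cultures, against 75.8, 199.8 and 104 in glucose cultures (adjusted p = 0.0186). BDH1 was among the calls that held with acetate array 1 alone, at log2 -1.92 (adjusted p = 0.0386).

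Lipid and membrane genes showed few calls, against 2.16% of all genes called higher and 2.41% lower. Of 27 sterol genes 3 fell, ERG1, ERG5 and ERG9, with log2 changes of -0.82, -0.72 and -0.92 (adjusted p = 0.0347, 0.043 and 0.0295). None of the 27 was called with the 3'/5' covariate. The list's median was -0.207 with all arrays and -0.248 with the covariate. It was -0.261 with acetate array 1 alone and -0.341 without glucose arrays 1 and 3. INO1, inositol-3-phosphate synthase, was the 1 riser of 21 phospholipid genes, with 1176, 1094 and 1088 in acetate cultures, against 847, 559.6 and 646 in glucose cultures (log2 change 0.73 ± 0.20 (SE), adjusted p = 0.0438). FAA1, an acyl-CoA synthetase, was the 1 faller of 18 fatty acid genes (log2 -0.96 ± 0.23). Of 30 genes for beta-oxidation and peroxisomes PEX21, a factor for protein import into peroxisomes, was called, at 442, 359.9 and 411 in acetate cultures, against 199.5, 185 and 195 in glucose cultures (log2 change 1.06 ± 0.21 (SE), adjusted p = 0.00684). STL1, the proton symporter for glycerol, rose to 512, 262 and 245 in acetate cultures, against 59.1, 69.9 and 84.8 in glucose cultures (log2 change 2.19 ± 0.41 (SE), adjusted p = 0.00429), while GCY1, a glycerol dehydrogenase, fell (log2 -1.27 ± 0.20, adjusted p = 0.00125). BIO2, biotin synthase, was the 1 riser of 37 cofactor genes (log2 0.89 ± 0.20). Of 35 cell wall genes 4 were called higher (CCW12, TIP1, GAS5 and UTH1), of which CCW12 and TIP1 are among the bright genes described below, and 1, PIR3, fell. Single members fell among 26 vacuolar protease and autophagy genes (PAI3, an inhibitor of proteinase A), 17 phosphate regulated genes (PHM8) and 30 purine and pyrimidine genes (BAS1, a transcription factor), against 2.41% of all genes called lower. Of 31 translation factors HYP2 was called higher and CAM1 lower.

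The counts called by limma were 0 of 82 ribosome biogenesis factors, 0 of 73 mitochondrial ribosomal proteins, 0 of 37 proteasome subunits and 0 of 27 cell cycle and histone genes. Over all genes 2.16% were called higher and 2.41% lower. At an unadjusted p under 0.05 the counts of these lists were 6, 8, 4 and 5. Their median log2 changes were -0.185, -0.11, -0.114 and -0.193. With the 3'/5' covariate the medians were 0.395, 0.123, 0.046 and -0.012, where the median over genes was 0.15. Members that missed the threshold with a change past 2-fold included MRP20 (log2 -1.24, adjusted p = 0.116), MPP10 (-1.06, 0.0683) and CDC20 (-1.03, 0.0605), all lower in acetate. Of 82 cytosolic ribosomal protein genes 4 were called higher and 2 lower, and the median log2 was 0.09, or -0.06 after quantile normalization. Of the higher ones, RPS26A, RPP1B and RPS21B are among the bright genes described below. With the 3'/5' covariate no member of this list was called and its median was -0.05. RPL7B read 89.8, 54.4 and 18.1 in acetate cultures, against 601, 352 and 637 in glucose cultures (log2 change -3.52 ± 0.69 (SE), adjusted p = 0.0058). Its near-identical partner is RPL7A, and the log2 change of RPL7B was -0.89 (adjusted p = 0.584) with the 3'/5' covariate. Of 20 mating genes limma called 0, with 3 at an unadjusted p under 0.05. MF(ALPHA)1, the pheromone gene of the other mating type, read 24.7, 16 and 25.4 in acetate cultures, against 232, 40.4 and 41.4 in glucose cultures, with glucose array 1 apart from the other 5. Of 19 meiosis genes above the filter 1, SPS4, was called, at 26.1, 25.7 and 28.2 in acetate cultures, against 16.1, 10.1 and 7.8 in glucose cultures (adjusted p = 0.0494).

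Several of the largest increases were far smaller against glucose array 2 than against glucose arrays 1 and 3. For 45 probe sets with 3000 to 5000 on glucose array 2, the median ratio of array 1 to array 2 was 0.688 and that of array 3 to array 2 0.681. For the 5 probe sets at 5000 or more the ratios were 0.143 and 0.194, and all 5 were called higher. From 2000 to 3000 the ratios were 0.897 and 0.943, and from 500 to 2000 they were 0.979 to 1.03. Of 38 probe sets called higher and above 2000 on an acetate array, 28 had their lowest acetate signal under 2 times that of glucose array 2.

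Among those 38, the genes with glucose arrays 1 and 3 both under 0.5 times glucose array 2 were SSA1, RPS26A, YDR524C-B, TDH3, CCW12, HOR7, RPP1B, TIP1 and RPS21B, beside 1 probe set of several genes. RPS26A, a small subunit protein, read 5053, 7549 and 8647 in acetate cultures, against 166, 4243 and 3.1 in glucose cultures (log2 change 5.08 ± 1.22 (SE), adjusted p = 0.0207), and its log2 change without glucose arrays 1 and 3 was 0.70 (adjusted p = 0.608). SSA1, a cytosolic Hsp70, read 8412, 11319 and 11182 in acetate cultures, against 0.0, 7378 and 98.1 in glucose cultures (log2 change 5.63 ± 1.38 (SE), adjusted p = 0.0222), and 0.47 (adjusted p = 0.87) without the pair. TDH3, the main glyceraldehyde-3-phosphate dehydrogenase, read 5255, 6406 and 7117 in acetate cultures, against 281, 3910 and 99.6 in glucose cultures (log2 change 3.70 ± 0.81 (SE), adjusted p = 0.012), and 0.67 (adjusted p = 0.564) without the pair. On each of these 3 genes glucose array 2 was close to the acetate arrays and the other glucose arrays were far below. CCW12, a cell wall mannoprotein, read 8522, 11310 and 12906 in acetate cultures, against 1589, 6060 and 1892 in glucose cultures (log2 change 2.03 ± 0.41 (SE), adjusted p = 0.00736), and 0.83 (adjusted p = 0.499) without the pair. YDR524C-B, a small protein of unknown role, read 8622, 9953 and 11995 in acetate cultures, against 237, 6343 and 141 in glucose cultures, with a log2 change of 4.08 that became 0.67 (adjusted p = 0.586). These genes were picked by the low values of the pair, so a smaller change without it follows from the choice. The log2 changes of PCK1, MLS1, FBP1, ICL1 and YAT1 without the pair were 3.94 (adjusted p = 4.97e-05), 2.52 (adjusted p = 0.0014), 2.83 (adjusted p = 0.00117), 2.32 (adjusted p = 0.0015) and 3.20 (adjusted p = 0.00179).

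**Figure D4:**
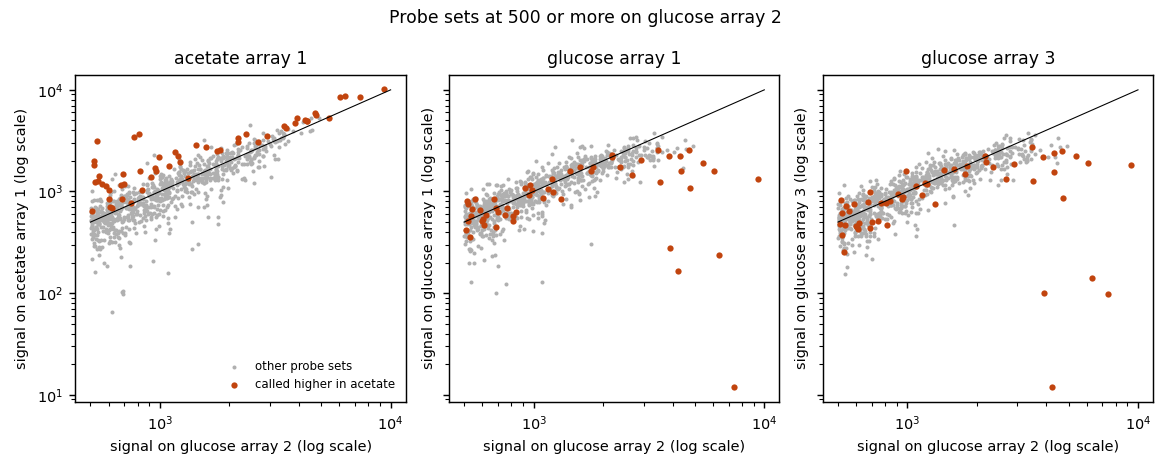
Signals of probe sets at 500 or more on glucose array 2 (x axis) are set against acetate array 1 and glucose arrays 1 and 3 (log axes, values under 12 drawn at 12), with the probe sets called higher in acetate in orange and the line of equal signal in black. On acetate array 1 the brightest probe sets follow the line, and on glucose arrays 1 and 3 they stay at or under 3765, and some fall far below the line.

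Of the 254 higher calls, 122 had no gene name. Among 1002 tested probe sets without a name, 122 were higher and 6 lower, the median log2 was 0.50 and 85.3% of changes were positive. Among 5596 probe sets with 1 gene, 121 were higher and 137 lower, the median was -0.05 and 45.2% were positive. The unnamed probe sets were mostly dim. Their median signals were 37.9, 44.0 and 56.4 on acetate arrays 1 to 3, against 26.4, 25.4 and 30.3 on glucose arrays 1 to 3. On the ethanol arrays the medians were 33.6, 36.1 and 51.5, and on the maltose arrays 28.8, 21.0 and 35.5. At matched brightness the classes also differed in the median: at mean signals of 50 to 200 the median log2 was 0.63 for 231 unnamed and -0.08 for 2311 probe sets with 1 gene. On acetate arrays 1 to 3 the unnamed medians rose in the order of the actin 3'/5' ratio, 2.78, 10.24 and 13.09. The ethanol arrays kept that order too, with ratios of 3.31, 9.27 and 13.98. On the glucose and maltose arrays it did not hold, with ratios of 1.84, 2.60 and 1.97, and of 2.95, 2.96 and 1.82. The part of RNA quality or RNA preparation in the shift was not tested beyond the following fits. With acetate array 1 alone the median over unnamed probe sets was 0.23 with 9 called higher, and with the 3'/5' covariate 0.22 with 1 called higher, where probe sets with 1 gene had 0.15.

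Setting acetate beside the other C2 source showed few differences. Between acetate and ethanol cultures 2 probe sets were called, 0.0292% of 6857, and 291 had an unadjusted p under 0.05. Since glucose cancels, this is also the test of whether a gene's change on acetate differed from its change on ethanol. SIT1, the siderophore transporter, read 615, 369 and 566 in acetate cultures, against 79.7, 103 and 82.3 in ethanol cultures and 102, 97 and 63.6 in glucose cultures. Its log2 difference, acetate minus ethanol, was 2.52 ± 0.33 (SE, adjusted p = 0.00271), and ethanol and glucose signals overlapped. CDA2, a chitin deacetylase of the spore wall, read 38.5, 33.7 and 37.5 in acetate cultures, 163, 154 and 131 in ethanol cultures and 9.8, 4.4 and 13.1 in glucose cultures (log2 acetate minus ethanol -2.03 ± 0.27, adjusted p = 0.00271). Its level on acetate lay between those on ethanol and on glucose, with no overlap. ENB1, the other siderophore transporter, read 725, 406 and 412 in acetate cultures and 306, 245 and 177 in ethanol cultures and did not pass (adjusted p = 0.544).

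The other sugar set apart a few of the calls. Of 14 probe sets called between maltose and glucose cultures (0.204% of 6857), 8 were also called between acetate and glucose: SUC2 with 2 probe sets, HXT4, HXT10, INO1, MAL11, IMA5 and 1 of several genes. The comparisons share the glucose arrays, so only the values are given. SUC2, invertase, read 166, 132 and 148 in acetate cultures, 123, 164 and 238 in maltose cultures and 569, 419.6 and 608 in glucose cultures on the brighter probe set. Acetate and maltose signals overlapped and all lay below glucose. HXT4 read 21.1, 23.9 and 32.1 in acetate cultures, 21.9, 6.8 and 20.2 in maltose cultures and 83.7, 69.1 and 56.2 in glucose cultures. MAL11, an alpha-glucoside permease, read 96.3, 67 and 106 in acetate cultures, 3335, 4455 and 2583 in maltose cultures and 510.1, 401 and 572 in glucose cultures, so glucose stood between acetate and maltose. IMA5, an isomaltase, was under 12 on all 3 acetate arrays, at 159.5, 66.5 and 146 in maltose cultures and 43.4, 31.4 and 32.7 in glucose cultures. It was at least 2.96-fold lower in acetate than in glucose cultures, a description with no test, since on these 6 arrays it passed the filter only through glucose. INO1 read 1176, 1094 and 1088 in acetate cultures, 329, 254 and 372 in maltose cultures and 847, 559.6 and 646 in glucose cultures, an order with acetate highest and maltose lowest.

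**Figure D5:**
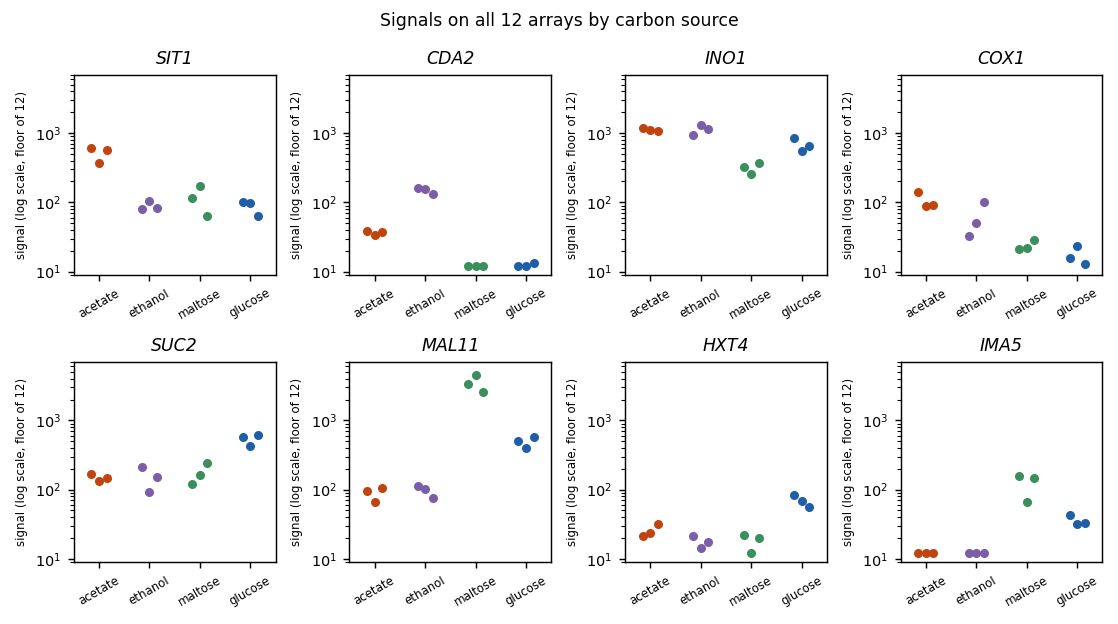
Signals on all 12 arrays (log axis, values under 12 drawn at 12) for 8 genes, with acetate, ethanol, maltose and glucose from left to right and 1 point per array. SIT1 is high in acetate alone, CDA2 is highest in ethanol with acetate next, MAL11 and IMA5 are highest in maltose, and SUC2 and HXT4 are highest in glucose.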

How the data were processed

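RNA was hybridised to Affymetrix Yeast Genome S98 arrays, 1 array per culture, 12 in all. The deposited values are intensities on a linear scale, 1 per probe set, brought by the authors to a common 2% trimmed mean. Per the submitters' processing notes, MAS5 made those of the acetate, ethanol and maltose arrays, and for the glucose arrays no software is named. Arrays have no read depth, and their number limits the precision. Of 9335 probe sets, 60 controls and 2418 dim ones were left out. The platform annotation, with symbols updated through the RefSeq gene table, gave 1 gene for 5596 of the 6857 tested, several for 259 and none for 1002. No genome or promoter table was used here.

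Signals were rescaled to the same trimmed mean, floored at 12 and log2 transformed. The R 4.3.3 package limma 3.58.1 fitted 1 mean per carbon source to all 12 arrays, with its moderated test, a trend of the variance with signal and 8 residual degrees of freedom. Then came Benjamini-Hochberg adjustment over all 6857 probe sets and a call at an adjusted p under 0.05. The p-values measure the spread between arrays of the same carbon source, pooled over all sources. Differences of culture, RNA and array enter that spread together. The p-values do not allow for protocol differences between the sources. A gene stood by its brightest probe set on the 6 arrays. Of 238 genes with over 1 tested probe set, 29 had a call. Every probe set was called the same way for 5 of these 29 and changed the same way for 19. None had calls in both directions. Probe sets shared by near-identical genes (HXT6 and HXT7, ADH1 and ADH2, FDH1 and FDH2, the TDH, SSA, RPL7 and RPS26 pairs) are open to cross-hybridisation, and a fold against a group at the floor is a lower bound.

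The comparison, the 38 gene lists and the members were chosen with earlier results of these data known. Named genes were the 15 highest and 15 lowest called changes without overlap between groups, up to 4 called members per list or 2 values where none passed, up to 6 each way in the acetate-ethanol and maltose-glucose contrasts, and a fixed set of carbon genes. Genes chosen after their values were seen are said to be so. Alternatives changed the scaling, floor, filter, fit and arrays.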

Additional observations from a re-analysis of the deposited data

How the results depend on the processing

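Of 403 calls between acetate and glucose, none changed sign under any alternative except 1 that was chosen after seeing the data. The count was 507 with the replicate numbers as a replicate block, 648 with the acetate and glucose arrays alone, 183 with a floor of 50, 182 without the filter, 2534 with array weights, 71 with the 3'/5' covariate, 29 with acetate array 1 and ethanol array 1 as the only arrays of their groups, and 101 without glucose arrays 1 and 3. Leaving out 1 acetate or glucose array gave 129 to 650. That alternative, with acetate array 1 against glucose array 2, called 0, and 2 of the 254 higher calls changed sign in it. Of 122 called probe sets of named genes, 52 stayed called with the covariate. All 122 kept their sign in that fit, with acetate array 1 alone and without glucose arrays 1 and 3. Same-numbered acetate and glucose arrays had deviations from their group means correlated at -0.007, -0.025 and 0.229, so the numbers were not taken to pair the cultures. The cause of these changes was not tested, beyond the fewer arrays that some settings hold.

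Between acetate and ethanol, 2 calls became 1 with median scaling, a floor of 1 or a mean signal of at least 100, 5 with a floor of 50, 466 with array weights, 0 with acetate array 1 and ethanol array 1, 0 in the added setting, and 1 to 4 on leaving out 1 array. Between maltose and glucose, 14 calls became 7 at a mean signal of at least 100, 428 with array weights, 4 with acetate array 1 and ethanol array 1, 24 with the code letter as a block, 33 with arrays coded P, 7 without glucose arrays 1 and 3, 4 in the added setting, and 9 to 41 on leaving out 1 array.

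Signs turned for 7 named genes, 6 of them uncalled. CYC1, with a main log2 change of -0.03, had 0.0941 with array weights, 0.0129 without glucose arrays 1 and 3, and -0.116 to 0.0804 on leaving out 1 array. With the covariate SCL1 had 2.0e-04, RPN12 0.0127 and CAT8 0.202. Without glucose arrays 1 and 3 CAT8 had 0.0618, MET8 -0.0273 and GCV3 -0.213. In the added setting MET8 had -0.0439, RPN12 0.109, GCV3 -0.172 and RPS21B, the called one, -0.0422. The number of arrays limits the precision, and dim signals near the floor of 12 bound the folds of low genes.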
